A study of Mus musculus with 48 samples.

Results

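The 31 genes described here encode the enzymes that make sterols and fatty acids, together with the proteins that control them, and were taken by name from the 54735 genes counted in each library. They comprise 18 sterol synthesis enzymes, 8 enzymes of fatty acid synthesis, elongation and desaturation, and 5 genes of sterol sensing and transport. RNA-seq was performed on 3 cell populations sorted from the spleens of male Balb/c mice at 10 weeks of age, with 4 WT and 4 *Il1rl1*-/- mice and no treatment. Monocytes were sorted as Ly6Glo CD11bhi F4/80- cells, pre-RPMs, the precursors of red pulp macrophages, as CD11bhi F4/80lo cells, and red pulp macrophages (RPMs) as CD11blo/- F4/80hi cells. One library was made per population and mouse, giving 24 libraries in 6 groups. *Il1rl1* encodes the receptor of the cytokine IL-33, and its loss in these mice is not limited by the label to any cell type. The comparisons address how gene expression changes along the path from monocyte to RPM, and whether these changes differ without the receptor.

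Cells build cholesterol from acetyl-CoA through the mevalonate pathway, which ends in farnesyl diphosphate, and then through squalene and lanosterol. Fatty acids are built from the same acetyl-CoA, which ATP citrate lyase releases from citrate, by acetyl-CoA carboxylase and fatty acid synthase, and are then elongated and desaturated. The transcription factors SREBP1, encoded by *Srebf1*, and SREBP2, encoded by *Srebf2*, are released from the endoplasmic reticulum with the escort protein SCAP when sterols are low, and INSIG1 retains them there when sterols are plentiful. SREBP2 is best known for driving sterol synthesis and SREBP1 for driving fatty acid synthesis. RPMs engulf aged red blood cells and recycle their iron.

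Total counts ranged from 3562367 to 6559454 per library, of which *Gm42418*, a gene that overlaps ribosomal RNA, took 24.41 to 38.75%, and the 31 genes together 0.0382 to 0.0764%. Values are counts as CPM, each library being scaled by its total and the trimmed mean of M-values (TMM). By the total alone, without TMM, 3 counts, the level treated as not told apart from 0, corresponded to 0.457 to 0.842 CPM. Where 4 values are given for a group, they are in the order of mice 1 to 4. All 24 libraries resembled libraries of their own cell type most closely. The counts of *Il1rl1* went against the genotype labels in monocytes, at 12 to 28 in WT and 51 to 73 in those labelled *Il1rl1*-/-, and in pre-RPMs, at 13 to 24 and 42 to 76. In RPMs they were 5 to 13 in WT and 1 to 7 in those labelled *Il1rl1*-/-, the direction of the label. Libraries are therefore referred to by their labels, and the directions between genotypes follow these labels. The summed CPM of 12 RPM markers was 7559 to 9701 in WT RPMs against 121 to 358 in WT pre-RPMs. The 9 monocyte markers summed to 772 to 1920 in WT monocytes, a range that overlapped with the 1575 to 1983 of WT pre-RPMs and did not extend above it. Monocyte libraries also carried markers of other cells: in WT, the 6 NK cell markers summed to 523 to 1744 CPM, against 63.6 to 130 in pre-RPMs, and the 10 neutrophil markers to 759 to 2462, against 171 to 244, and the 5 plasma cell markers to 416 to 589, against 111 to 166. In such bulk libraries, fewer cells of a type and less RNA per cell cannot be told apart.

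The level of the genes spanned a wide range in every group. Scaled by exon length, *Fads2*, the delta-6 desaturase of polyunsaturated fatty acids, was the highest of the 31 genes in WT monocytes, pre-RPMs and RPMs, at 44.9 ± 14.1, 55.8 ± 10.5 and 41.6 ± 6.25 CPM per kb (mean ± SD, n = 4). The annotation used for counting gives *Fads2* only 1508 exonic bases, and a length that is too short raises the value. *Acly*, ATP citrate lyase, was second in all 3 WT groups, with 15.5 ± 2.10 CPM per kb in pre-RPMs and 9.15 ± 1.62 in RPMs. *Fads1*, the delta-5 desaturase, was the third highest in WT RPMs, at 9.02 ± 0.662 CPM per kb. The lowest levels in WT pre-RPMs were those of the sterol enzymes *Hsd17b7*, *Acat2*, *Lss* and *Tm7sf2* and of the elongase *Elovl6*, from 0.119 to 0.518 CPM per kb. The same annotation gives *Lss* 10787 exonic bases, and a length that is too long lowers the value. Before scaling by length, the mean of *Lss* in WT pre-RPMs was 4.75 CPM. Summed over the 18 sterol enzymes, the length-scaled level was 30.6 ± 2.91 in WT monocytes, 32.4 ± 4.09 in pre-RPMs and 24.7 ± 4.04 in RPMs. For the 8 fatty acid enzymes, the sums were 79.9 ± 12.7, 80.7 ± 13.8 and 73.2 ± 9.22, most of which was *Fads2*. Some rows are uncertain, since 47.2% of the exonic bases of *Tm7sf2* and 26.7% of those of *Fdps* lie under exons of other genes on the same strand, and *Scd1* and *Scd2* are close paralogues.

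**Figure D1:**
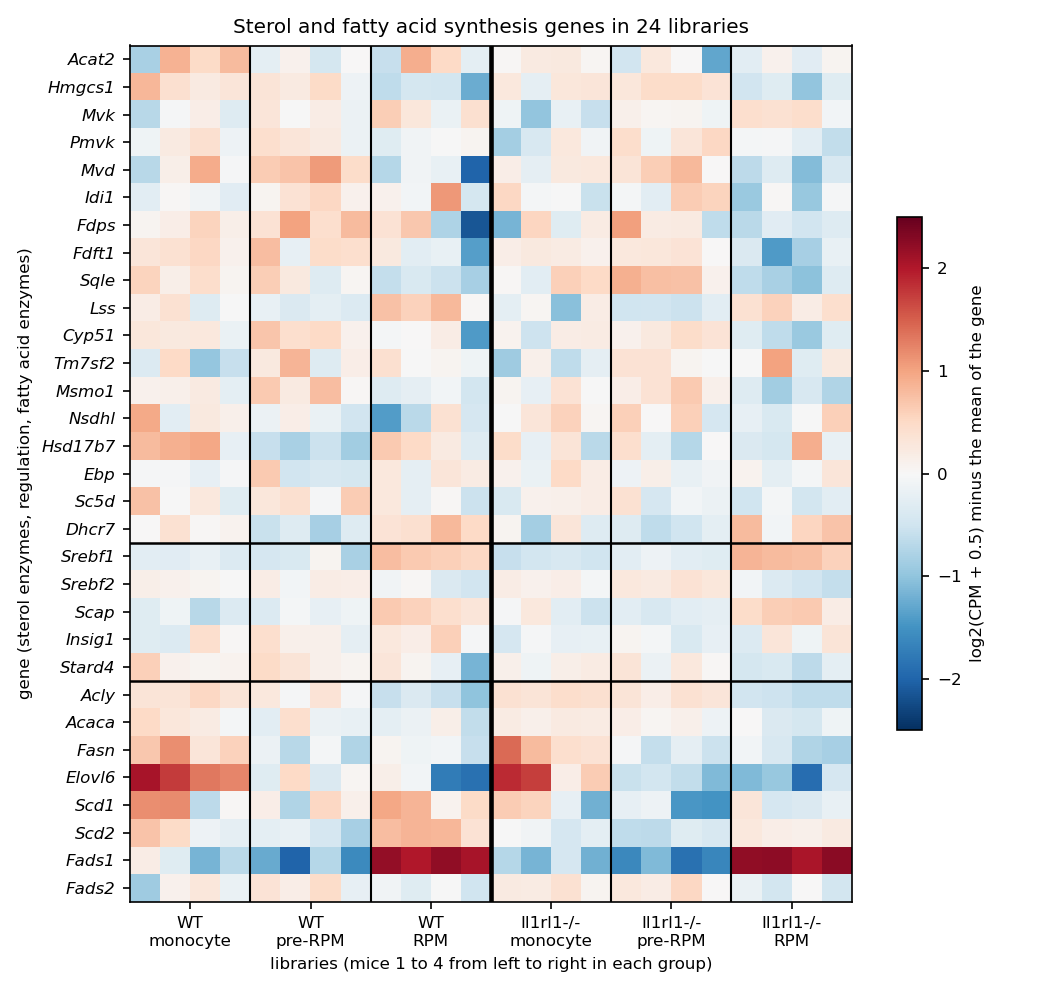
Heatmap of the 31 genes in rows and the 24 libraries in columns, with the color giving log2(CPM + 0.5) minus the mean of the gene over all libraries, and lines separating the 6 groups and the sterol, regulatory and fatty acid genes. *Fads1* stands out in all 8 RPM libraries and *Elovl6* in most monocyte libraries. Most values of the sterol enzymes lie within 1 log2 unit of the mean of the gene, with single libraries beyond it.

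From monocytes to pre-RPMs, 2 fatty acid enzymes fell, *Fasn* (ENSMUSG00000025153, chromosome 11, 120805846 to 120824547, minus strand, GRCm38) and *Elovl6* (ENSMUSG00000041220, chromosome 3, 129532355 to 129638495, plus strand). No sterol enzyme or regulator passed the test. *Fasn*, fatty acid synthase, had 51.6, 72.7, 39.9 and 48.8 CPM in monocytes of WT mice 1 to 4, and 29.3, 20.0, 31.4 and 19.0 in their pre-RPMs. The groups did not overlap, and mice 1 and 2 had the highest monocyte values. The log2 fold change was -1.10 (SE 0.21, adjusted p = 0.00755, the quasi-likelihood test of edgeR, with p-values adjusted by Benjamini-Hochberg over all genes, used throughout). *Elovl6*, which elongates the palmitate made by fatty acid synthase, had 14.1, 11.2, 8.26 and 7.64 CPM in WT monocytes and 2.33, 4.46, 2.21 and 3.09 in pre-RPMs. It too was higher in every monocyte library than in any pre-RPM library, with a log2 fold change of -1.77 (SE 0.29, adjusted p = 0.00303). The same genes were called in the libraries labelled *Il1rl1*-/-. There, *Fasn* had 87.8, 56.1, 43.5 and 41.8 CPM in monocytes and 31.9, 21.4, 27.7 and 22.2 in pre-RPMs, and fell by 1.16 on the log2 scale (adjusted p = 0.00603). *Elovl6* had 12.3, 11.1, 3.45 and 4.94 CPM and then 1.89, 2.04, 1.79 and 1.12, and fell by 2.2 (adjusted p = 0.00584).

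The thresholds between cell types were an adjusted p of 0.01 and a log2 fold change beyond 1 in either direction. By these, 2 of the 28 members tested in WT were called, against 3.57% of all 11091 genes tested (3.25% lower and 0.316% higher). With the label *Il1rl1*-/-, 2 of 27 were called, both lower, against a background of 4.85% (3.88% lower and 0.974% higher). The groups did not overlap for 3 of the 28 members in WT (*Dhcr7*, *Fasn* and *Elovl6*), against 20.9% of all genes, and for 4 of 27 with the other label (*Srebf1*, *Srebf2*, *Fasn* and *Elovl6*), against 22.3%. *Acat2*, *Idi1* and *Hsd17b7* did not pass the filter on low counts in either genotype, nor did *Fdps* under the *Il1rl1*-/- label. *Hsd17b7*, a ketosteroid reductase, had 3 counts or fewer in all 4 WT pre-RPM libraries. The median log2 fold change was -0.63 for the 8 fatty acid enzymes and 0.13 for the 15 sterol enzymes tested in WT, and -0.54 and 0.26 under the *Il1rl1*-/- label, against 0.01 and 0.00 for all genes. *Scd2*, a stearoyl-CoA desaturase, and *Fads1* had log2 fold changes of -0.68 (adjusted p = 0.068) and -1.05 (adjusted p = 0.0894) in WT.

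Both calls were sensitive to the libraries used. In WT, *Fasn* kept its call without monocyte library 3 but lost it without any 1 of the other 7 libraries, with adjusted p-values up to 0.0321 over the 8 omissions, and *Elovl6* lost its call without pre-RPM library 1, 3 or 4, with adjusted p-values up to 0.0162. Neither was called without any 1 of the 4 pre-RPM libraries labelled *Il1rl1*-/- or without monocyte library 2 of that label, and *Fasn* alone lost its call without monocyte library 1, with a log2 fold change of -0.89. With the mouse number as a block, *Fasn* missed the threshold in WT (adjusted p = 0.0116). Monocytes of mice 1 and 2, which had the most *Fasn* and *Elovl6* in both genotypes, also had the most NK cell markers. The NK marker sum was 1476, 1744, 523 and 963 CPM in monocytes of WT mice 1 to 4, and 1438, 1082, 466 and 741 CPM in those labelled *Il1rl1*-/-, against 11.7 to 47.0 in pre-RPMs of that label. *Ncr1*, a receptor of NK cells, had 99.6 to 306 CPM in WT monocytes and 15.5 to 23.9 in WT pre-RPMs. *Gzma* (243 to 895 against 29.8 to 72.5) and *Prf1* (110 to 317 against 10.5 to 20.2) were likewise higher in WT monocytes. The same held for *Eomes* (50.9 to 173 against 6.19 to 14.7) and *Klrb1c* (19.0 to 54.8 against 1.67 to 4.46). *Klra8*, the remaining marker of the list, was at or near 0 in all groups, so it could not show a difference. In its flow cytometry, the study counted splenic monocytes, pre-RPMs and RPMs alike among cells low in NK1.1. The sort of monocytes given in the labels names no such gate. The part of NK cells, of neutrophils and of plasma cells in the difference was not tested.

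**Figure D2:**
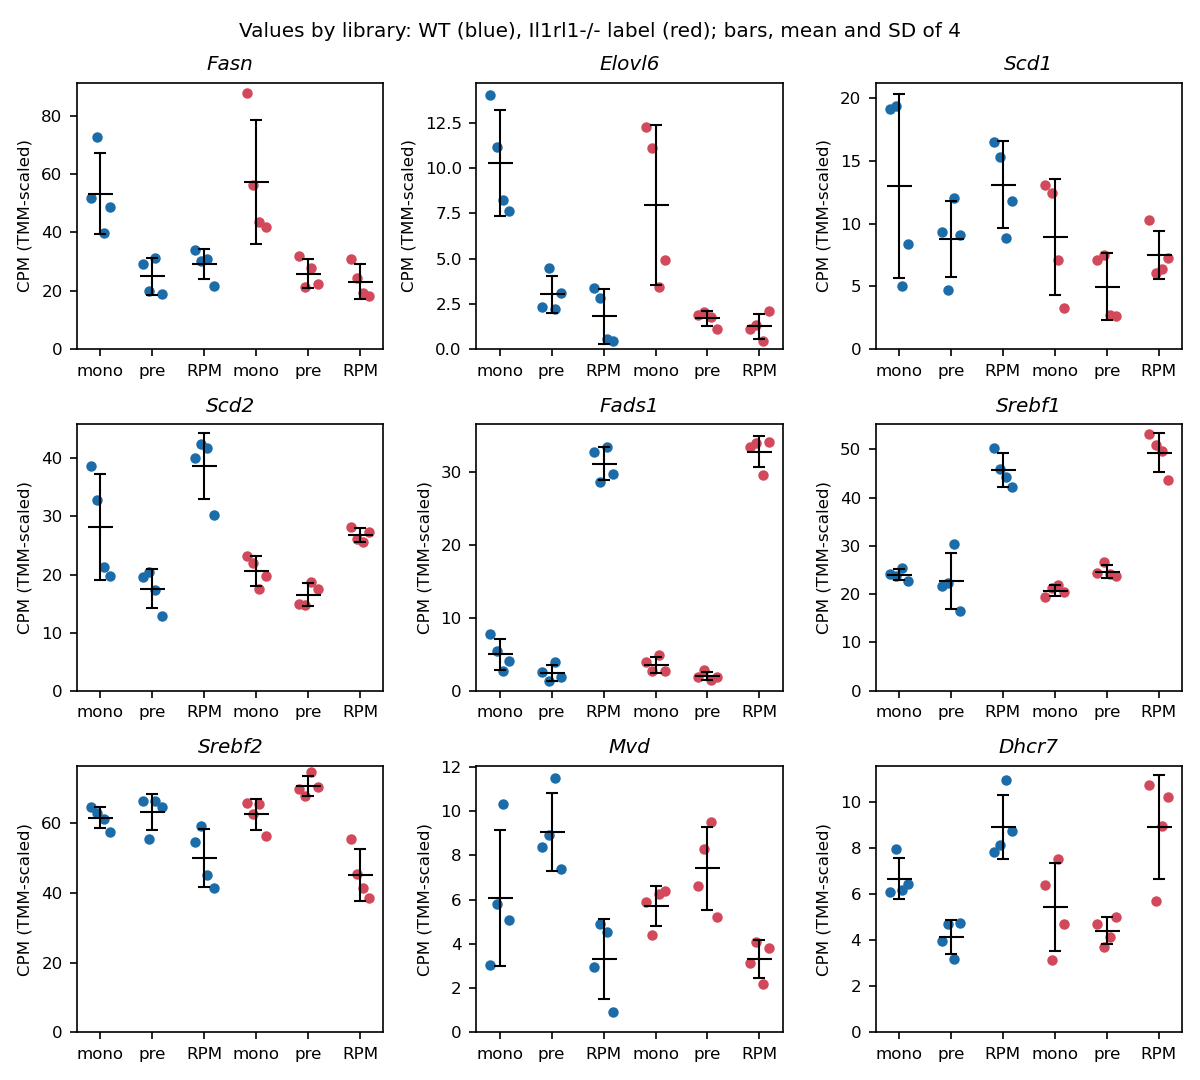
CPM of 9 genes in each library, with monocytes, pre-RPMs and RPMs along the horizontal axis, WT in blue, libraries labelled *Il1rl1*-/- in red, and bars for the mean and SD of 4 mice. *Fasn* and *Elovl6* are highest in monocytes, *Fads1* lies at 28.7 to 34.1 CPM in RPMs of both labels against 1.31 to 7.79 elsewhere, and *Srebf1* and *Srebf2* move in opposite directions in RPMs.

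From pre-RPMs to RPMs, sterol and fatty acid genes moved in both directions. In WT, 4 of the 28 members tested were called, *Fads1*, *Scd2* and *Dhcr7* higher and *Mvd* lower, against a background of 24.7% of 11239 genes (14.0% higher and 10.7% lower). With an adjusted p under 0.05 and no limit on the fold change, 14 of 28 passed, 6 higher and 8 lower, against 50.4% of all genes (25.6% higher and 24.8% lower). The groups did not overlap for 11 of 28 members, against 46.6% of all genes. Under the *Il1rl1*-/- label, 5 of 26 were called, 1 higher and 4 lower, against 26.0% (14.5% higher and 11.5% lower). An adjusted p under 0.05 was reached by 16, 6 higher and 10 lower, against 54.1% (27.3% higher and 26.7% lower), and 15 of 26 did not overlap, against 49.4%. In what follows, rose and fell denote an adjusted p under 0.05.

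Early mevalonate enzymes fell or did not pass. *Hmgcs1*, which condenses acetyl-CoA with acetoacetyl-CoA, had 18.6, 17.3, 20.8 and 13.6 CPM in WT pre-RPMs and 9.31, 10.8, 10.7 and 6.0 in RPMs. No RPM library reached a pre-RPM library, and the log2 fold change was -0.98 (SE 0.20, adjusted p = 0.000913), with -0.96 (adjusted p = 8.97e-05) under the label *Il1rl1*-/-. *Mvd*, which decarboxylates mevalonate diphosphate, had 8.37, 8.93, 11.5 and 7.38 CPM in WT pre-RPMs and 2.96, 4.88, 4.54 and 0.923 in RPMs, again without overlap. Its log2 fold change was -1.48 (SE 0.34, adjusted p = 0.00215). With the label *Il1rl1*-/-, *Mvd* had 6.62, 8.31, 9.53 and 5.22 CPM in pre-RPMs and 3.14, 4.09, 2.19 and 3.83 in RPMs, and fell by 1.18 (adjusted p = 0.00157). The mevalonate kinase *Mvk* (0.20, 95% interval -0.32 to 0.73) and the phosphomevalonate kinase *Pmvk* (-0.38, -0.93 to 0.17) did not pass in WT. *Fdps*, farnesyl diphosphate synthase, had a log2 fold change of -0.93 in WT with a 95% interval from -2.09 to 0.24. *Acat2*, which joins acetyl-CoA units, and the isopentenyl diphosphate isomerase *Idi1* were too low to be tested, and *Acat2* did not exceed 2.65 CPM in any library.

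Beyond farnesyl diphosphate, *Lss* and *Dhcr7* rose, whereas the other enzymes tested fell or did not pass. *Sqle*, squalene epoxidase, had 6.51, 4.99, 3.19 and 4.29 CPM in WT pre-RPMs and 2.54, 3.05, 2.67 and 2.08 in RPMs. Its log2 fold change was -0.91 (adjusted p = 0.0167) in WT and -1.54 (adjusted p = 0.000257) under the *Il1rl1*-/- label. The squalene synthase *Fdft1* fell by 1.01 under the *Il1rl1*-/- label (adjusted p = 0.00423), whereas in WT its log2 fold change was -0.77 with an adjusted p of 0.0515. *Lss*, which closes the rings of lanosterol, rose instead, from 5.12, 4.46, 4.90 and 4.52 CPM in WT pre-RPMs to 10.2, 8.95, 10.7 and 6.0 in RPMs. Its groups did not overlap, and its log2 fold change was 0.86 (SE 0.23, adjusted p = 0.00559) in WT and 0.85 (adjusted p = 0.0023) with the label *Il1rl1*-/-. Of the enzymes that next act in removing methyl groups, *Cyp51* and *Msmo1* fell. *Cyp51* fell by 0.73 (adjusted p = 0.0391) in WT and 0.90 (adjusted p = 0.000599) under the *Il1rl1*-/- label, and *Msmo1* by 0.78 (adjusted p = 0.00266) and 1.00 (adjusted p = 0.000159). *Dhcr7*, the last reductase on the way to cholesterol, rose from 3.95, 4.73, 3.19 and 4.76 CPM in WT pre-RPMs to 7.83, 8.14, 11.0 and 8.77 in RPMs. Every RPM library exceeded every pre-RPM library, and the log2 fold change was 1.04 (SE 0.22, adjusted p = 0.00124). With the label *Il1rl1*-/-, *Dhcr7* had 4.73, 3.73, 4.17 and 5.03 CPM in pre-RPMs and 10.8, 5.72, 8.99 and 10.2 in RPMs, with a log2 fold change of 0.94 (adjusted p = 0.00384). The other enzymes tested between lanosterol and cholesterol, the reductase *Tm7sf2*, the dehydrogenase *Nsdhl*, the isomerase *Ebp* and the desaturase *Sc5d*, passed in neither genotype, and their log2 fold changes lay between -0.50 and 0.18 in WT. *Hsd17b7* was too low to be tested in this step, with 0.698, 0.525, 0.736 and 0.476 CPM in WT pre-RPMs and 2.33, 2.03, 1.6 and 0.923 in RPMs, without overlap, whereas under the *Il1rl1*-/- label its groups overlapped. *Hmgcs1*, *Sqle*, *Fdft1*, *Lss*, *Cyp51*, *Msmo1* and *Hsd17b7* were given in detail after their values were seen.

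Library 4 of the WT RPMs had the lowest value of its group for 23 of the 31 genes and for 12 of the 18 sterol enzymes. Under the other label, *Fdft1* and *Msmo1* were called at log2 fold changes close to -1, and each lost the call, with an adjusted p of at most 0.013, when 1 of several libraries was left out. Without WT RPM library 4, 6 members were called in WT, 5 higher and 1 lower. *Cyp51* then had a log2 fold change of -0.46 (adjusted p = 0.0646) and *Sqle* of -0.82 (adjusted p = 0.0526). *Mvd* was called without any 1 library, with log2 fold changes from -1.75 to -1.17. *Cyp51* also missed an adjusted p under 0.05 without WT pre-RPM library 1, 2 or 3 or WT RPM library 1, and *Sqle* without WT pre-RPM library 1. *Dhcr7* kept an adjusted p under 0.01 without any 1 library, although its fold change went under the threshold of 1 without pre-RPM library 3 or RPM library 3.

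To show sterol genes that fell and a neighbor in the pathway that rose, the promoters of *Hmgcs1*, *Mvd*, *Msmo1* and *Lss* are printed as the 250 bases before the start of each gene in RefSeq (GRCm38.p6), on the strand of the gene. They lie at chr13:119690101-119690350 (plus strand), chr8:122443423-122443672 (minus strand), chr8:64733579-64733828 (minus strand) and chr10:76531355-76531604 (plus strand). In the annotation used for counting, *Msmo1* begins at 64733792 and *Lss* at 76531588, so part of these stretches lies inside the genes as counted. Capitals mark CCAAT on either strand, the box bound by NF-Y, and TCACNCCAC on either strand, a core of the sterol regulatory element.
Hmgcs1: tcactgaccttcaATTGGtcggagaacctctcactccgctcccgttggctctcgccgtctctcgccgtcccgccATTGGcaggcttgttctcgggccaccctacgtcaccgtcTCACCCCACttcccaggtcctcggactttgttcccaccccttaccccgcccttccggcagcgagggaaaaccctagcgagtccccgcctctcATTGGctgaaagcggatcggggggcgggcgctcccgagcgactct
Mvd: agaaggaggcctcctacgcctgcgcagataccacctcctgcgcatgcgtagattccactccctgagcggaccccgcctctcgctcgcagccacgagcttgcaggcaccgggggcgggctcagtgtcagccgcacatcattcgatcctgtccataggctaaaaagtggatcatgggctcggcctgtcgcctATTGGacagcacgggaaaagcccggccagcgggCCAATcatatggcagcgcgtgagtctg
Msmo1: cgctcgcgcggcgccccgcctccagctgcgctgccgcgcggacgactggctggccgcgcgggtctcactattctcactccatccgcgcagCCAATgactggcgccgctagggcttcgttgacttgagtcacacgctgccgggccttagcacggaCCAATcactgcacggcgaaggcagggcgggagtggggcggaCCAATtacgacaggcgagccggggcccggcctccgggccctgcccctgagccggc
Lss: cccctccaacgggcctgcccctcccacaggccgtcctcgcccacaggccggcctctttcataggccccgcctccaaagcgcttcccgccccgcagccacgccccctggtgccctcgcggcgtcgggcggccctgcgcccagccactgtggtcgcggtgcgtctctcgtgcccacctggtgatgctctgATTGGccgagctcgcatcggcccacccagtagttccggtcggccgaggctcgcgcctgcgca
The letters CCAAT occurred 3 times before *Hmgcs1*, 2 times before *Mvd*, 3 times before *Msmo1* and 1 time before *Lss*, and only the *Hmgcs1* sequence of these 4 held TCACNCCAC. RefSeq promoters, from 250 bases before to 50 after the start, were matched for 24 of the 31 genes, excluding *Fdps*, *Fdft1*, *Sqle*, *Stard4*, *Scd1*, *Scd2* and *Fads1*. CCAAT was present in 19 of these 24 (79.2%, 14 of 15 sterol enzymes and 2 of 5 fatty acid enzymes), against 41.1% of 27025 genes. GGGCGG, the box bound by Sp1, was present in 20 (83.3% against 38.2%), CACGTG in 5 (20.8% against 8.09%), and TCACNCCAC in 1 (4.17% against 1.44%). The motifs were searched on both strands, and CCAAT was found both for sterol enzymes that rose and for those that fell.

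*Srebf1* (ENSMUSG00000020538, chromosome 11, 60199089 to 60222581, minus strand) and *Srebf2* (ENSMUSG00000022463, chromosome 15, 82147181 to 82205379, plus strand) changed in opposite directions. *Srebf1* had 21.6, 22.3, 30.4 and 16.4 CPM in WT pre-RPMs and 50.4, 46.0, 44.4 and 42.2 in RPMs. The groups did not overlap, and the log2 fold change was 0.97 (SE 0.15, adjusted p = 0.000108). *Srebf2* had 66.1, 55.4, 66.2 and 64.5 CPM in WT pre-RPMs and 54.4, 59.0, 44.9 and 41.3 in RPMs, with 1 pre-RPM library below the highest RPM library. Its log2 fold change was -0.38 (SE 0.13, adjusted p = 0.0212), and it missed an adjusted p under 0.05 without pre-RPM library 1 or RPM library 3 or 4. In the libraries labelled *Il1rl1*-/-, *Srebf1* had 24.4, 26.6, 24.1 and 23.7 CPM in pre-RPMs and 53.1, 50.8, 49.8 and 43.7 in RPMs (log2 fold change 0.94, adjusted p = 7.77e-07). *Srebf2* had 69.8, 67.7, 74.4 and 70.3 CPM and then 55.4, 45.4, 41.2 and 38.3, without overlap (log2 fold change -0.70, adjusted p = 5.62e-05). In monocytes of mice 1 to 4, *Srebf1* had 24.1, 23.8, 25.5 and 22.8 CPM in WT and 19.4, 21.2, 22.0 and 20.4 with the label *Il1rl1*-/-, close to the pre-RPM values. *Srebf2* had 64.5, 62.7, 61.0 and 57.4 CPM in WT monocytes and 65.7, 62.4, 65.3 and 56.2 in those labelled *Il1rl1*-/-.

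Because both genes are measured in the same library, their ratio does not depend on scaling between libraries. Per kb of exon, the ratio of *Srebf1* to *Srebf2* was 0.477 to 0.532 in WT monocytes, 0.325 to 0.586 in WT pre-RPMs and 0.994 to 1.30 in WT RPMs. Under the *Il1rl1*-/- label, it was 0.377 to 0.462, 0.413 to 0.502 and 1.22 to 1.54. All 8 RPM libraries thus had a ratio above that of all 16 other libraries. *Scap*, the sterol-sensing escort of both factors, rose from 22.8, 28.1, 25.0 and 26.7 CPM in WT pre-RPMs to 45.7, 43.1, 38.7 and 35.8 in RPMs (log2 fold change 0.63, adjusted p = 0.000487). It rose by 0.73 under the *Il1rl1*-/- label (adjusted p = 6.87e-05). *Insig1* did not pass in either genotype, with a log2 fold change of 0.09 in WT (95% interval -0.29 to 0.46) and 0.16 under the *Il1rl1*-/- label (-0.21 to 0.52). *Stard4*, which carries cholesterol between membranes, had a log2 fold change of -0.46 in WT (adjusted p = 0.148) and fell by 0.60 in the libraries labelled *Il1rl1*-/- (adjusted p = 0.00745).

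**Figure D3:**
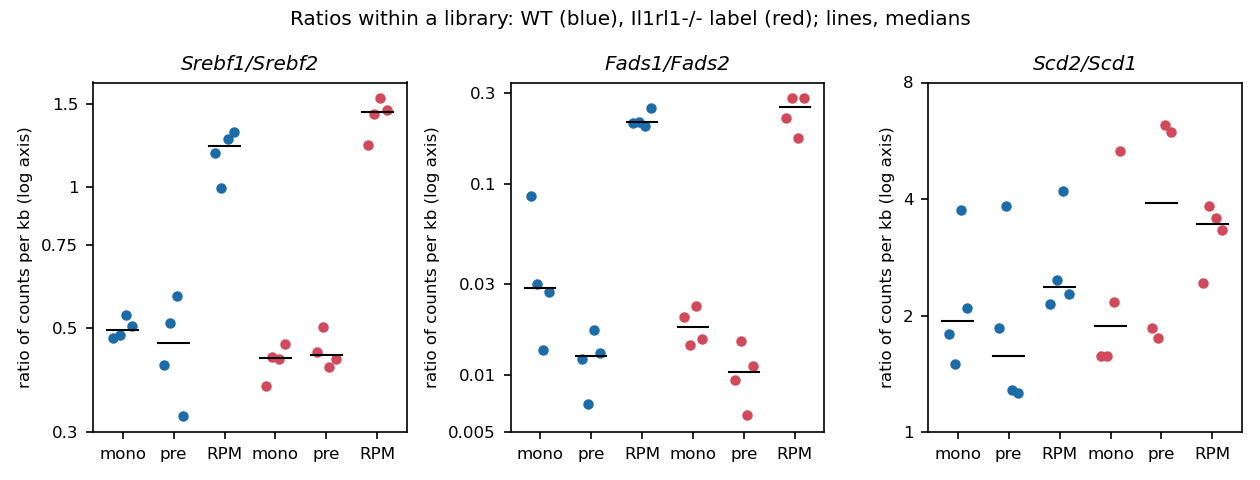
Ratios of counts per kb of exon within each library, on log axes, for *Srebf1* over *Srebf2*, *Fads1* over *Fads2* and *Scd2* over *Scd1*, with WT in blue, libraries labelled *Il1rl1*-/- in red and lines at the medians. RPM libraries of both labels lie above all others for the first and the second ratio, and overlap with the other cell types for *Scd2* over *Scd1*.

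Among the fatty acid genes, *Acly* and *Fads2* fell and *Fads1* and *Scd2* rose. *Acly* fell from 89.1, 72.7, 93.7 and 72.1 CPM in WT pre-RPMs to 49.5, 57.4, 49.7 and 36.7 in RPMs, with no overlap (log2 fold change -0.80, SE 0.14, adjusted p = 0.000275). It fell by 0.92 under the *Il1rl1*-/- label (adjusted p = 3.66e-07). *Acaca*, acetyl-CoA carboxylase, had log2 fold changes of -0.22 (adjusted p = 0.39) and -0.34 (adjusted p = 0.0673). *Fasn* did not pass either: it had 33.9, 30.1, 31 and 21.7 CPM in WT RPMs and 30.9, 24.4, 19.1 and 18.1 in those labelled *Il1rl1*-/-, with log2 fold changes of 0.18 (95% interval -0.21 to 0.57) and -0.20 (-0.57 to 0.17). *Elovl6* was low in RPMs, at 3.39, 2.85, 0.534 and 0.462 CPM in WT and 1.12, 1.31, 0.439 and 2.13 with the label *Il1rl1*-/-, and in WT its log2 fold change was -0.70 with a 95% interval from -1.77 to 0.37.

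*Fads1* showed the widest difference between pre-RPMs and RPMs of the members tested. It had 2.56, 1.31, 3.92 and 1.90 CPM in WT pre-RPMs and 32.8, 28.7, 33.4 and 29.8 in RPMs. The log2 fold change was 3.61 (SE 0.22, adjusted p = 6.46e-09), and it lay between 3.42 and 3.93 when any 1 library was left out. Under the *Il1rl1*-/- label, *Fads1* had 1.89, 2.88, 1.49 and 1.86 CPM in pre-RPMs and 33.4, 34.0, 29.6 and 34.1 in RPMs (log2 fold change 3.89, SE 0.17, adjusted p = 4.59e-11). Monocytes held 7.79, 5.39, 2.75 and 4.04 CPM in WT and 3.94, 2.73, 4.95 and 2.68 with the label *Il1rl1*-/-, also below every RPM library. *Fads1* (ENSMUSG00000010663) lies on chromosome 19 from 10182888 to 10196870 on the plus strand in GRCm38, and *Fads2* (ENSMUSG00000024665), which acts in the same pathway of polyunsaturated fatty acids, lies near it from 10064164 to 10101503 on the minus strand. *Fads2* fell by 0.47 in WT (adjusted p = 0.0176) and by 0.57 with the label *Il1rl1*-/- (adjusted p = 0.00194). In WT, *Fads2* missed an adjusted p under 0.05 without pre-RPM library 1 or 3 or RPM library 4, and with all 24 libraries in 1 fit (adjusted p = 0.0661). The length-scaled ratio of *Fads1* to *Fads2* was 0.00706 to 0.0172 in WT pre-RPMs and 0.202 to 0.252 in WT RPMs, and 0.0062 to 0.0152 and 0.176 to 0.283 under the *Il1rl1*-/- label.

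The stearoyl-CoA desaturases, which make monounsaturated from saturated fatty acids, are also encoded on chromosome 19, *Scd2* (ENSMUSG00000025203) from 44293676 to 44306864 on the plus strand and *Scd1* (ENSMUSG00000037071) from 44394451 to 44407709 on the minus strand. *Scd2* rose from 19.5, 20.5, 17.4 and 12.9 CPM in WT pre-RPMs to 40.0, 42.5, 41.7 and 30.2 in RPMs, with every RPM library above every pre-RPM library (log2 fold change 1.09, SE 0.16, adjusted p = 5.14e-05). Its fold change was below the threshold of 1 without pre-RPM library 4 (0.96). In the libraries labelled *Il1rl1*-/-, *Scd2* had 14.9, 14.8, 18.8 and 17.5 CPM in pre-RPMs and 28.2, 26.1, 25.7 and 27.3 in RPMs, and rose by 0.65 (adjusted p = 0.000196). *Scd1* varied more between mice, with 9.30, 4.73, 12 and 9.05 CPM in WT pre-RPMs and 16.5, 15.3, 8.82 and 11.8 in RPMs, and the groups overlapped (log2 fold change 0.54, adjusted p = 0.094). With the label *Il1rl1*-/-, *Scd1* had 7.09, 7.46, 2.68 and 2.61 CPM in pre-RPMs and 10.3, 6.05, 6.36 and 7.24 in RPMs (0.49, adjusted p = 0.223). In monocytes, *Scd1* had 19.1, 19.4, 5.05 and 8.39 CPM in WT and 13, 12.4, 7.11 and 3.29 with the label *Il1rl1*-/-. *Scd2* had 38.6, 32.7, 21.3 and 19.8 CPM in WT monocytes and 23.1, 22.1, 17.4 and 19.8 in those labelled *Il1rl1*-/-.

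**Figure D4:**
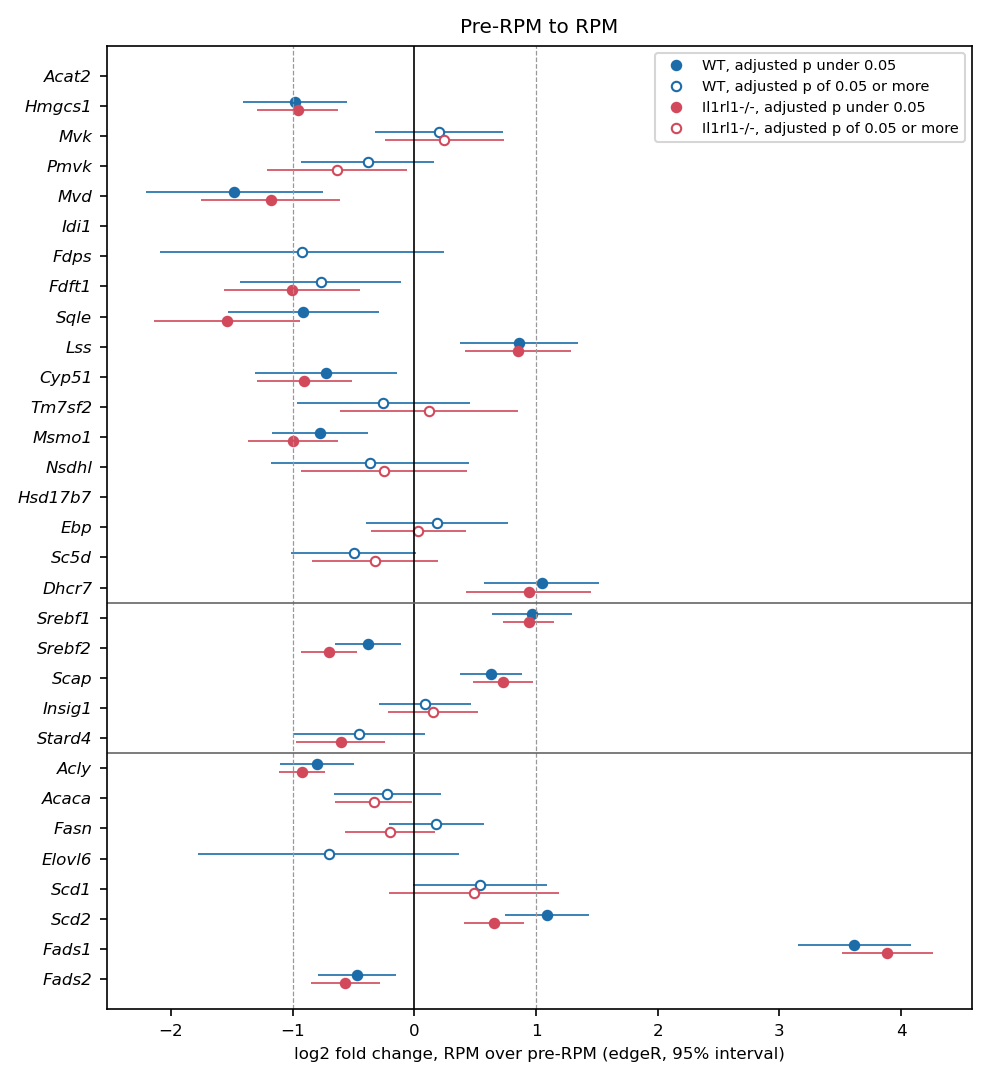
Log2 fold change from pre-RPMs to RPMs of each member, with 95% intervals, in WT (blue) and in libraries labelled *Il1rl1*-/- (red), filled where the adjusted p was under 0.05, with dashed lines at -1 and 1 and members without a point not tested. *Fads1* lies at 3.61 and 3.89, apart from all others, and 24 of the 26 members tested in both genotypes lie on the same side of 0.

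Between the branches, the median log2 fold change from pre-RPMs to RPMs was -0.50 for the 15 sterol enzymes tested in WT, 0.09 for the 5 regulatory genes and -0.02 for the 8 fatty acid enzymes, against 0.00 for all genes. Under the *Il1rl1*-/- label, the medians were -0.48, 0.16 and -0.20. Of the sterol enzymes, 2 rose and 5 fell in WT, and 2 rose and 6 fell under the *Il1rl1*-/- label. Of the fatty acid enzymes, 2 rose and 2 fell in each. The same 14 members passed an adjusted p under 0.05 in both genotypes with the same sign, 6 higher and 8 lower in RPMs. Of the 26 members tested in both, 24 had the same sign, or 92.3%, against 87.2% of all genes, the exceptions being *Tm7sf2* and *Fasn*. Markers of other cells moved with this step as well. The 9 erythroid markers, which include the transferrin receptor *Tfrc*, summed to 336 to 1200 CPM in WT RPMs against 14.7 to 59.1 in WT pre-RPMs, and the 15 cell cycle genes to 273 to 351 against 72.0 to 103. Under the *Il1rl1*-/- label, the erythroid sums were 205 to 1098 and 14.0 to 21.1. The 7 eosinophil markers summed to 54.2 to 104 CPM in WT pre-RPMs and to 293 to 426 in WT RPMs. *Ccr3* made up most of the sum in RPMs (median 36.5 CPM in pre-RPMs and 291 in RPMs), and *Ear2* had medians of 18.8 and 21.1. *Siglecf* (4.74 and 0.943), *Prg2* (10.3 and 6.01), *Il5ra* (6.03 and 0.221), *Ear1* (1.26 and 0) and *Epx* (0.480 and 0.134) had lower medians in RPMs. The 6 T cell markers summed to 6.37 to 17.9 and to 39.3 to 82.5, of which *Cd4* made up 23.8 to 30.9 CPM in WT RPMs, and the median of *Cd3e* was 2.89 and 12 CPM. The part of erythroid or T cell RNA or of cell division in the differences of this step was not tested.

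Between genotypes, no member was called in any of the 3 cell types at an adjusted p under 0.05, by edgeR or by DESeq2. In monocytes, 27 members were tested, the lowest adjusted p was 0.997, and 0.0614% of all genes were called. In pre-RPMs, 27 were tested, with a lowest adjusted p of 0.495 and a background of 0.552%. In RPMs, 26 were tested, with a lowest adjusted p of 0.15 and a background of 0.233%. At an unadjusted p under 0.05, 0, 2 and 2 members passed, against 3.59%, 8.8% and 7.27% of all genes, and the groups did not overlap for 1 member in monocytes (*Srebf1*), 2 in pre-RPMs (*Srebf2* and *Elovl6*) and 1 in RPMs (*Scd2*), against 2.34%, 4.97% and 4.33%. The 95% interval of the difference lay within 2-fold in either direction for 22, 22 and 21 members, with median half-widths of 0.49, 0.44 and 0.46 on the log2 scale.

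The members with an unadjusted p under 0.05 were desaturases and an elongase. In RPMs, *Scd2* had 40.0, 42.5, 41.7 and 30.2 CPM in WT and 28.2, 26.1, 25.7 and 27.3 under the *Il1rl1*-/- label. The groups did not overlap, as for 4.33% of all genes, and the log2 fold change was -0.53 (SE 0.12, adjusted p = 0.15). Without WT RPM library 4, the lowest of its group, the adjusted p was 0.0276. *Scd1* had a log2 fold change of -0.84 in RPMs (SE 0.23, adjusted p = 0.325). When every gene with at least 1 count was tested, the adjusted p was 0.00908 for *Scd1* and 0.0189 for *Scd2*. That setting also called many more genes of the whole table between genotypes in RPMs, as given in the closing section. In pre-RPMs, *Scd1* had a log2 fold change of -0.79 and *Elovl6* of -0.81 (adjusted p = 0.495 for both). The log2 fold change of *Scd1* was below 0 in all 3 cell types, with -0.56 in monocytes (adjusted p = 0.997), but no comparison passed the threshold and the groups overlapped in each. Among all members tested, log2 fold changes were below 0 for 20 of 27 (monocytes), 15 of 27 (pre-RPMs) and 20 of 26 (RPMs), with medians of -0.15, -0.09 and -0.13, whereas the median of all genes was within 0.01 of 0.

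**Figure D5:**
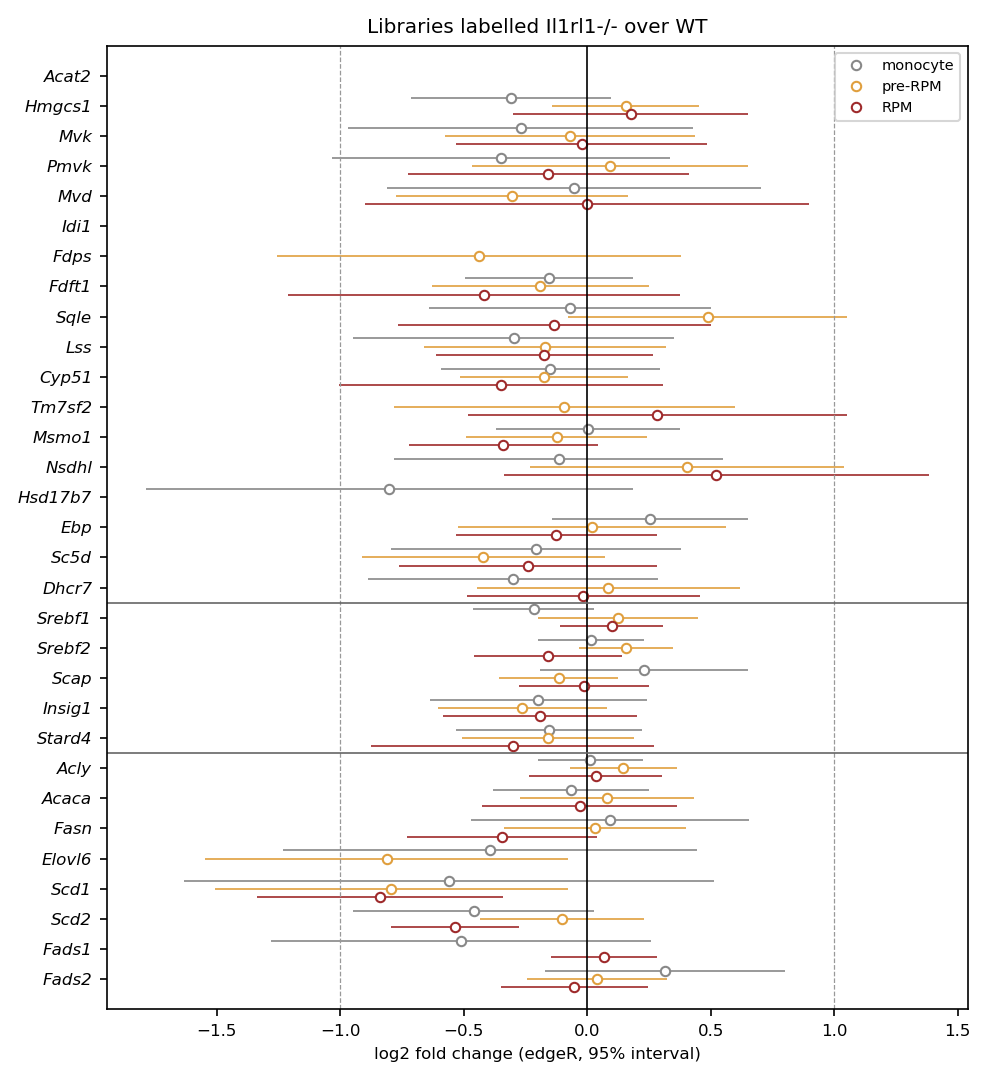
Log2 fold change of each member in libraries labelled *Il1rl1*-/- over WT, with 95% intervals, in monocytes (grey), pre-RPMs (orange) and RPMs (dark red), and no point for members not tested. All points are open because no adjusted p was under 0.05, and the points lie between -0.84 and 0.52.

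Differences of the steps between genotypes, tested as interactions, did not pass the threshold for any member. For the step from monocytes to pre-RPMs, 30 members were tested, and 0 of all 11960 genes passed an adjusted p under 0.05 in edgeR, with 454 (3.8%) at an unadjusted p under 0.05 and 0 in DESeq2. The member among these 454 was *Hsd17b7*, with a difference of 1.76 on the log2 scale (95% interval 0.36 to 3.16, adjusted p = 1). It had not passed the filter on low counts in the step of either genotype alone. Its WT pre-RPM libraries held 2 to 3 counts each, a level treated as not told apart from 0. For the step from pre-RPMs to RPMs, 29 members were tested, none was called, and 0.107% of 12150 genes passed. The only member with an unadjusted p under 0.05 in this step, as for 7.52% of all genes, was *Scd2*, whose change from pre-RPMs to RPMs differed by -0.42 on the log2 scale (95% interval -0.84 to -0.01, adjusted p = 0.66), and the interval for *Fads1* was -0.38 to 0.96 and that for *Srebf1* -0.40 to 0.37.

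Other genes of sterol and fatty acid metabolism were followed from 3 further lists. In the list of sterol uptake, storage and efflux, 7 of 15 genes tested were called higher in WT RPMs than in pre-RPMs and 0 lower, with a median log2 fold change of 0.76, against the 14.0% of all genes called higher. *Nr1h3*, which encodes the oxysterol receptor LXRα, had 5.95 to 7.44 CPM in WT pre-RPMs and 86.1 to 99.9 in RPMs (log2 fold change 3.80, adjusted p = 9.7e-11). *Abca1*, the cholesterol exporter, had 15.6 to 20.6 CPM in WT pre-RPMs and 124 to 157 in RPMs (2.91, adjusted p = 3.21e-10). Of 17 other fatty acid genes tested, 4 were called higher and 1 lower: *Acsl3*, an acyl-CoA synthetase, rose by 2.95 (adjusted p = 2.93e-08), with 2.09 to 4.17 CPM in WT pre-RPMs and 21.8 to 26.2 in RPMs, and *Mid1ip1*, an activator of acetyl-CoA carboxylase, fell by 1.02 (adjusted p = 0.00125). Of 13 other sterol genes, 1 was called higher, *Erlin2* at 2.67, named after its value was seen, and 1 lower, *Lbr*, a nuclear envelope protein with sterol reductase activity, at -1.07 (adjusted p = 1.25e-06). Under the *Il1rl1*-/- label, 5 of 15 were called higher and 0 lower, 4 of 17 higher and 1 lower, and 1 of 13 higher and 0 lower, against 14.5% and 11.5% of all genes. *Abca1* was the only gene of these 3 lists whose step from pre-RPMs to RPMs differed between genotypes, with an interaction of 0.98 (SE 0.16, adjusted p = 0.00972): it had 9.23 to 12.4 CPM in pre-RPMs labelled *Il1rl1*-/- and 160 to 182 in RPMs of that label.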

How the data were processed

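Splenic monocytes, pre-RPMs and RPMs were sorted, and total RNA was made into stranded libraries that were sequenced. The 24 chromatin accessibility samples of the 48 in the series were not analysed here. The authors counted read pairs per gene name on exons with featureCounts 1.6.2 (reverse strand, setting 2, Ensembl annotation of GRCm38 release 95, per the file headers), after alignment with STAR 2.5.1. The deposited values are raw counts, neither normalized nor filtered. The submitters' processing notes name a GRCh38 build, whereas the file headers name GRCm38, which was used.

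Groups were taken from the labels. Pairs of groups were compared with edgeR 4.0.16 in R 4.3.3 (limma 3.58.1, TMM, filterByExpr, quasi-likelihood F test, Benjamini-Hochberg adjustment over all genes tested), and differences between steps as interactions. The standard error was derived from the F statistic. Calls between cell types required an adjusted p of less than 0.01 with a log2 fold change beyond 1 in size, and those between genotypes and for interactions an adjusted p of less than 0.05. CPM was scaled over all 24 libraries. Total counts of 3562367 to 6559454 limit the precision of low genes, and floors cover counting error only. The tests were also tested on simulated data with a shared dispersion, at an adjusted p under 0.05. For the WT step from pre-RPMs to RPMs, 57 of 103 changes of 2-fold and 92 of 97 of 4-fold were recovered. Between genotypes in pre-RPMs, 60 of 99 and 98 of 101 were recovered. For the interaction from pre-RPMs to RPMs, 21 of 104 and 73 of 96 were recovered, so most 2-fold interactions were missed.

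The mouse number, which pairs cell types of one animal within a genotype, was tried as a block. The mean correlation of deviations of same-numbered libraries was 0.063 and 0.113 for the WT steps, 0.208 and 0.111 under the other label, and 0.257, 0.092 and 0.162 between genotypes, where same-numbered mice are different animals. The separate animals come from the labels, so p-values measure the spread between mice. Of 36 pairs of replicates, 0 were identical.

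The members, pathway lists and marker lists were chosen with earlier results of these data known. All members are named. Values in every library are given for members called from WT monocytes to pre-RPMs or between genotypes, for the 6 largest called changes without overlap from WT pre-RPMs to RPMs in each direction, and for Srebf1, Srebf2, Scd1 and Scd2. Of the other lists, the 3 largest called changes in each direction were named, and the rest were chosen after values were seen. Alternatives were RLE size factors, leaving out Gm42418, other filters on low counts, DESeq2 1.42.0, all libraries in 1 fit, the block, other thresholds and each library left out. Descriptions used Python 3.11.15, NumPy 2.4.6, pandas 2.3.3, SciPy 1.17.1 and matplotlib 3.10.9.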

Additional observations from a re-analysis of the deposited data

Results flagged for a closer look

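In 54 groups of 4 libraries, formed by the 9 members given for every library and the 6 groups, a single library stood far from the other 3 in 2 cases, where chance alone gives about 1 in 20. *Fads1* was at 29.6 CPM in RPM library 3 labelled *Il1rl1*-/-, against 33.4, 34.0 and 34.1 in the other 3, and this gap made up 0.85 of the range of the group. *Srebf2* was at 55.4 CPM in WT pre-RPM library 2, against 66.1, 66.2 and 64.5 in the other 3, a gap of 0.844 of the range.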

How the results depend on the processing

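Alternatives were followed for members past a threshold in a comparison, and for Scd1 and Scd2 between genotypes, and none of these changed direction: of 592 values, 535 kept their direction and side of the threshold, 54 lost the call and 3 gained it. From WT monocytes to pre-RPMs, 2 members were called, but 1 with at least 10 counts in every library, 1 with the mouse number as a block, and 0 to 2 with a library left out. In the libraries labelled Il1rl1-/-, 2 were called, 1 with at least 10 counts, and 0 to 2 with a library left out. From pre-RPMs to RPMs, 4 were called in WT, 14 at an adjusted p under 0.05, and 4 to 6 with a library left out. In the libraries labelled Il1rl1-/-, 5 were called, 3 with every gene of at least 1 count, 1 with at least 10 counts, 3 with all 24 libraries in 1 fit, 16 at an adjusted p under 0.05, and 3 to 6 with a library left out. Between genotypes in RPMs, 0 were called, 2 with every gene of at least 1 count, and 0 to 1 with a library left out. At least 10 counts in every library left fewer genes to test, without Elovl6, Mvd, Sqle, Fads1 or Scd1 in some comparisons. The causes of the other changes were not tested. The replicate block, the mouse number, changed no other call of a member. Over all genes, it called 27, 145 and 81 genes between genotypes in monocytes, pre-RPMs and RPMs, against 7, 59 and 26, whereas every gene of at least 1 count called 139, 265 and 272, and DESeq2 22, 80 and 48. All 24 libraries in 1 fit gave 16, 17 and 26, and at least 10 counts 3, 39 and 19. From monocytes to pre-RPMs, 396 WT genes and 543 under the Il1rl1-/- label were called, against 1094 and 1060 with every gene of at least 1 count, 217 and 264 with at least 10 counts, 660 and 665 by DESeq2, and 772 and 721 in 1 fit. For interactions from pre-RPMs to RPMs, 13 genes became 224, 5, 41, 3 and 36 with at least 1 count, at least 10 counts, DESeq2, 1 fit and the block. For interactions from monocytes to pre-RPMs, 0 genes became 78 with at least 1 count. From pre-RPMs to RPMs, 2776 WT genes and 2973 under the Il1rl1-/- label became 1467 and 1542 with at least 10 counts. At an adjusted p under 0.05 with no fold limit, the counts between cell types were 1624, 5663, 1912 and 6182, and at an adjusted p under 0.01 with a fold limit, those between genotypes were 5, 23 and 16 and that for the second interaction was 8. With a library left out, the count from WT monocytes to pre-RPMs ranged from 169, without pre-RPM library 4, to 1041, without monocyte library 3.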

Other observations

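Mice 1 and 2 both exceeded mice 3 and 4 of the same group in 4 of the 6 groups for *Elovl6* and for *Scd1*, namely the monocytes of both labels, the WT RPMs and the pre-RPMs labelled *Il1rl1*-/-, and in 0 of 6 groups were both below. This pattern was noticed after the values were seen. For *Fasn*, it held in 3 of 6 groups and was reversed in 0. For *Fads2*, it held in 0 of 6 groups in either direction. In RPMs, the erythroid markers were lower in mice 1 and 2, at 336, 387, 1200 and 748 CPM in WT and 387, 205, 943 and 1098 under the *Il1rl1*-/- label.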
